A study of Homo sapiens with 24 samples.

Results

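The transcriptome of T47D breast cancer cells in normoxia (21% oxygen) was compared with that of 3 other cancer cell lines kept in the same oxygen. The members are the 3 normoxic T47D libraries, chosen by their cell line and oxygen labels alone, out of 12 normoxic libraries and 24 libraries in the series. They were set against the mean of the normoxic A549, HCT116 and PC3 groups, with 3 libraries each. RNA was polyadenylated RNA from established lines of breast (T47D), lung (A549), colorectal (HCT116, written HCT-116 in the labels) and prostate (PC3) cancer. All lines grew in medium with 10% serum, L-glutamine and antibiotics. T47D alone was grown in DMEM, A549 and PC3 were grown in F12K and HCT116 was grown in McCoy's 5a, so an effect of the line and an effect of its medium cannot be told apart in any comparison given here. The labels name no transgene and no agent for any line. The remaining 12 libraries come from the same lines after 16 h in 0.5% oxygen (hypoxia) and served as a second set in which the same contrast was measured. The labels number the 3 libraries of each group without saying that they came from separate cultures, so p values measure the spread between these libraries, which may be technical.

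T47D is an established line of luminal breast cancer, a class that is defined by the estrogen receptor and the progesterone receptor. In luminal breast epithelium the estrogen receptor works together with the transcription factors GATA3 and FOXA1, which open chromatin at hormone-responsive genes, and prolactin acts through its own receptor and STAT5 to direct milk secretion. Epithelial cells of this kind hold each other through E-cadherin junctions, whereas vimentin, the ZEB factors and caveolae mark mesenchymal and basal cells.

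The 3 T47D libraries held 36578554, 56500593 and 57359955 counts. A549 libraries held 51650509 to 57448885 counts, HCT116 libraries 50636883 to 61798736 and PC3 libraries 22698584 to 52965052. In the normoxic libraries, the top 10 genes by counts held 4.37% to 8.78% of the total. Levels are given in CPM, in which each count is divided by its library's TMM-adjusted total, and 3 counts in the shallowest of the 12 libraries, equal to 0.130 CPM, was taken as the floor. Across genes, log2 levels of the T47D libraries correlated with each other at r of 0.983 to 0.991 and with the other lines at 0.702 to 0.760. The other 3 lines correlated among themselves at 0.772 to 0.815. These values describe libraries of one experiment over genes, which are not independent replicates.

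Of 15616 genes tested, 5647 were called higher in T47D than in the mean of the other lines (36.2%), and 4956 were called lower (31.7%). These shares are the background for the counts of calls in every normoxic gene list below. A call required an adjusted p under 0.05 in edgeR's quasi-likelihood test and a fold change over 1.2. Taken over all genes, the median log2 difference was 0.01. Because the contrast averages log levels over 3 lines, 1 line at 0 can set a fold change by itself. A stricter count was therefore made of called genes whose 3 T47D libraries all lay outside the range of the other 9. By this count 2664 genes were higher (17.1%) and 2370 were lower (15.2%). Among them, 1599 had a T47D mean of at least 2 times the highest other line, and 1292 had at most 1/2 of the lowest. The same counts without overlap were 2285 and 1500 genes when A549 was set against the other lines, 2121 and 1761 for HCT116, and 2097 and 1651 for PC3. Each of these 4 contrasts uses the same 12 libraries. In all, 104 genes called higher in T47D had 0 counts in all 9 other libraries, and 314 genes called lower had 0 counts in all 3 T47D libraries. In bulk RNA, fewer cells that express a gene and less of its RNA per cell cannot be told apart.

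Markers of the label were checked first. ESR1, the estrogen receptor (GRCh37 chr6:151977826-152450754), was at 165, 171 and 185 CPM in the 3 T47D libraries. In the other lines it was at 0.0585 ± 0.0346 CPM in A549, 0 in HCT116 and 1.88 ± 0.652 in PC3 (mean ± SD, n = 3). Every T47D library was far above every other library, with a log2 fold change of 11.34 ± 0.23 (SE, adjusted p = 2.30e-14), a value in which the 0 of HCT116 takes part. PGR, the progesterone receptor (chr11:100900355-101000544), was at 599, 651 and 736 CPM in T47D. The 9 other libraries together held 1 PGR count against 112114 in T47D, a depth-adjusted ratio of 280215 whose exact 95% interval for counting error alone ran from 50291.9 to 11068000. Both receptors that define luminal breast cancer were thus high in each T47D library, PGR was at or near 0 in every other library and ESR1 did not pass 2.56 CPM in any.

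Other nuclear receptors and their coregulators went in both directions. The mineralocorticoid receptor gene NR3C2 was low but above every other library, at 1.6, 1.68 and 1.79 CPM against at most 1.15 (log2 fold change 2.27 ± 0.40, adjusted p = 0.000101). The glucocorticoid receptor gene NR3C1 was lower in T47D, at 17.2, 11.3 and 20.4 CPM against 216 ± 12.8 in A549, 19.3 ± 6.92 in HCT116 and 43.8 ± 4.49 in PC3 (log2 fold change −1.80 ± 0.21, adjusted p = 1.21e-06). The T47D and HCT116 libraries overlapped for this gene. ESRRA, an orphan relative of the estrogen receptor, was lower than in every other library (29.9, 33.4 and 40.5 CPM, lowest other library 49.4, log2 fold change −1.23 ± 0.13). The coactivator NCOA2 was higher (1.05 ± 0.15), the membrane progesterone-binding protein PGRMC1 was lower (−1.20 ± 0.15), and the coactivator NCOA3 had a log2 fold change of 0.28 ± 0.13 with an adjusted p of 0.0705. Without A549 in the mean NCOA3 was called higher (1.23, adjusted p = 3.02e-06). Among the 15 receptors and coregulators tested, 7 were higher and 4 were lower, against 36.2% and 31.7% of all genes. Of these 15, 1 had passed the filter on low counts only with the T47D libraries. The median log2 fold change was 0.28, against 0.01 for all genes. Without HCT116 among the other lines this median was −0.34, and without A549 it was 0.94.

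**Figure D1:**
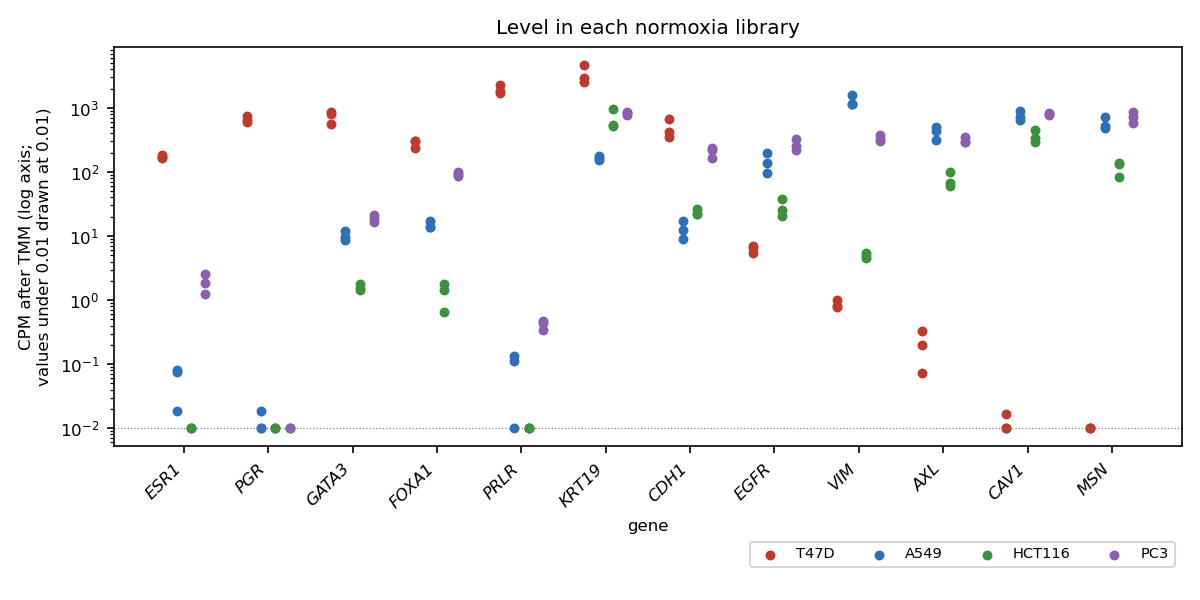
Level of 12 genes in each of the 12 normoxic libraries, in CPM after TMM scaling on a log axis, with 1 point per library, the 4 lines side by side at each gene and values under 0.01 drawn at 0.01. The 3 T47D points lie above all others from ESR1 to CDH1 and below all others from EGFR to MSN.

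Transcription factors of the luminal lineage were nearly all higher. Of 19 tested, 16 were higher and 2 were lower, with a median log2 fold change of 3.33 (2.71 without A549 among the other lines). Among the 19, 1 had passed the filter only with the T47D libraries, so its direction says little. Of the 19, 14 were called higher with every T47D library above the other 9, against 17.1% of all genes tested. GATA3 (chr10:8087341-8117161) was at 570.2, 795 and 848 CPM in T47D, against means of 10.2 in A549, 1.6 in HCT116 and 19 in PC3. Its T47D mean was 38.8 times the highest other line (log2 fold change 6.77 ± 0.15, adjusted p = 6.60e-15). FOXA1, the pioneer factor of estrogen receptor binding, was at 237, 309 and 309.6 CPM, and here PC3 came nearest, at 92.4 ± 5.76 CPM. FOXA1 was therefore 3.09 times the highest line, and its log2 fold change of 4.55 ± 0.17 (adjusted p = 9.68e-13) includes HCT116 at 1.29 CPM.

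XBP1, a factor of the secretory stress response that estrogen induces in breast cells, was at 1047, 1017 and 1534 CPM in T47D. The other 9 libraries lay between 43.8 and 75.3 CPM, so this gene separated T47D about equally from each line (log2 fold change 4.38 ± 0.14, adjusted p = 2.37e-13). SPDEF and EHF, both epithelial ETS factors, had log2 fold changes of 6.05 ± 0.24 and 3.96 ± 0.19. TRPS1, a GATA-type repressor of luminal cells, was at 614, 681 and 806 CPM against 0.303 in A549, 0 in HCT116 and 36.9 ± 2.04 in PC3. The AP-2 factors TFAP2A and TFAP2C (1.98 ± 0.13 and 3.17 ± 0.13), the LIM protein LMO4 (3.33 ± 0.12) and GRHL2 (195, 213 and 187 CPM, 0 in A549) were also above every other library. ELF3 was lower (−0.84 ± 0.20) but not after A549 was left out of the mean (−0.12, adjusted p = 0.617). SOX9 was lower as well (−1.12 ± 0.19, adjusted p = 6.47e-05), and TBX3 was not called (−0.26 ± 0.16, adjusted p = 0.166). Without HCT116 in the mean TBX3 was called lower (−1.06, adjusted p = 1.00e-05).

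ELF5, the ETS factor of alveolar milk-producing cells, belongs to the same list and to the 15 genes with the largest log2 fold changes. It was at 145, 131 and 159 CPM in T47D and at no more than 0.333 CPM elsewhere.

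Genes that estrogen is known to induce were mostly higher, with 21 of 26 called higher, 4 called lower and a median log2 fold change of 2.98. Among the 26, 2 had passed the filter only with the T47D libraries, so the direction of those 2 says little. With levels under the floor set to the floor, the median was 2.81. For 17 of the 26, T47D had the highest mean of the 4 lines, as it had for 28.7% of all genes tested. GREB1, a cofactor of the estrogen receptor, was at 345, 420.2 and 297 CPM against 4.54 ± 0.439 in A549 and 4.31 ± 0.906 in HCT116, and at 0.0064 CPM, under the floor, in PC3. PDZK1, a scaffold of membrane transporters, was at 232, 197 and 154 CPM and at most 3.89 elsewhere (log2 fold change 7.44 ± 0.24, adjusted p = 2.25e-13). RERG, a RAS-like growth inhibitor, and DNALI1, an axonemal dynein chain, followed the same pattern, at 60.7, 49.8 and 49.8 and 70.7, 55.3 and 64.4 CPM in the T47D libraries and at most 1.97 and 0.433 CPM elsewhere.

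STC2, a secreted stanniocalcin, was 1.75 times the highest line, PC3, with a log2 fold change of 3.03 ± 0.17. CTSD, the lysosomal protease cathepsin D, was at 1035, 921 and 1998 CPM, above the highest other library at 444, and IL6ST, RARA and the protease inhibitor gene SERPINA1 also stood above all 9 libraries (1.85 ± 0.13, 2.20 ± 0.17 and 7.05 ± 0.28). CXCL12, a chemokine, was at 282, 304 and 339 CPM in T47D and at most 0.0565 CPM in any other library, which is under the floor.

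Several textbook members went the other way or depended on 1 line. CCND1, cyclin D1, was lower in T47D (175, 276 and 244 CPM, lowest other library 277, log2 fold change −1.49 ± 0.24, adjusted p = 4.32e-05). AREG, an EGFR ligand, was lower than in every other library (−3.10 ± 0.27), as was the survival gene BCL2, at 0.194, 0.257 and 0.481 CPM against 1.23 to 2.92 elsewhere (−2.45 ± 0.36). TFF1, a trefoil peptide that is the classic estrogen-induced gene, was at only 2.91, 1.38 and 0.763 CPM in T47D and at 20.5 ± 3.75 CPM in PC3. It was called higher (1.95 ± 0.61, adjusted p = 0.011) because HCT116 was at 0. Without HCT116 its log2 fold change was −1.71 (adjusted p = 0.000754). IGFBP4 turned in the same way, from 4.93 to −1.18, with A549 at 2358 ± 317 CPM and T47D at 362, 361 and 449. The carbonic anhydrase gene CA12 was at 522, 533 and 659 CPM in T47D and at 721, 578 and 587 in A549, so it separated T47D from HCT116 and PC3 but not from A549. RAB31 was lower (−0.68 ± 0.14) with A549 in the mean and at 0.028 (adjusted p = 0.904) without it. The zinc transporter gene SLC39A6 was not called (adjusted p = 0.297), but without HCT116 it was called higher (0.65, adjusted p = 0.000743).

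**Figure D2:**
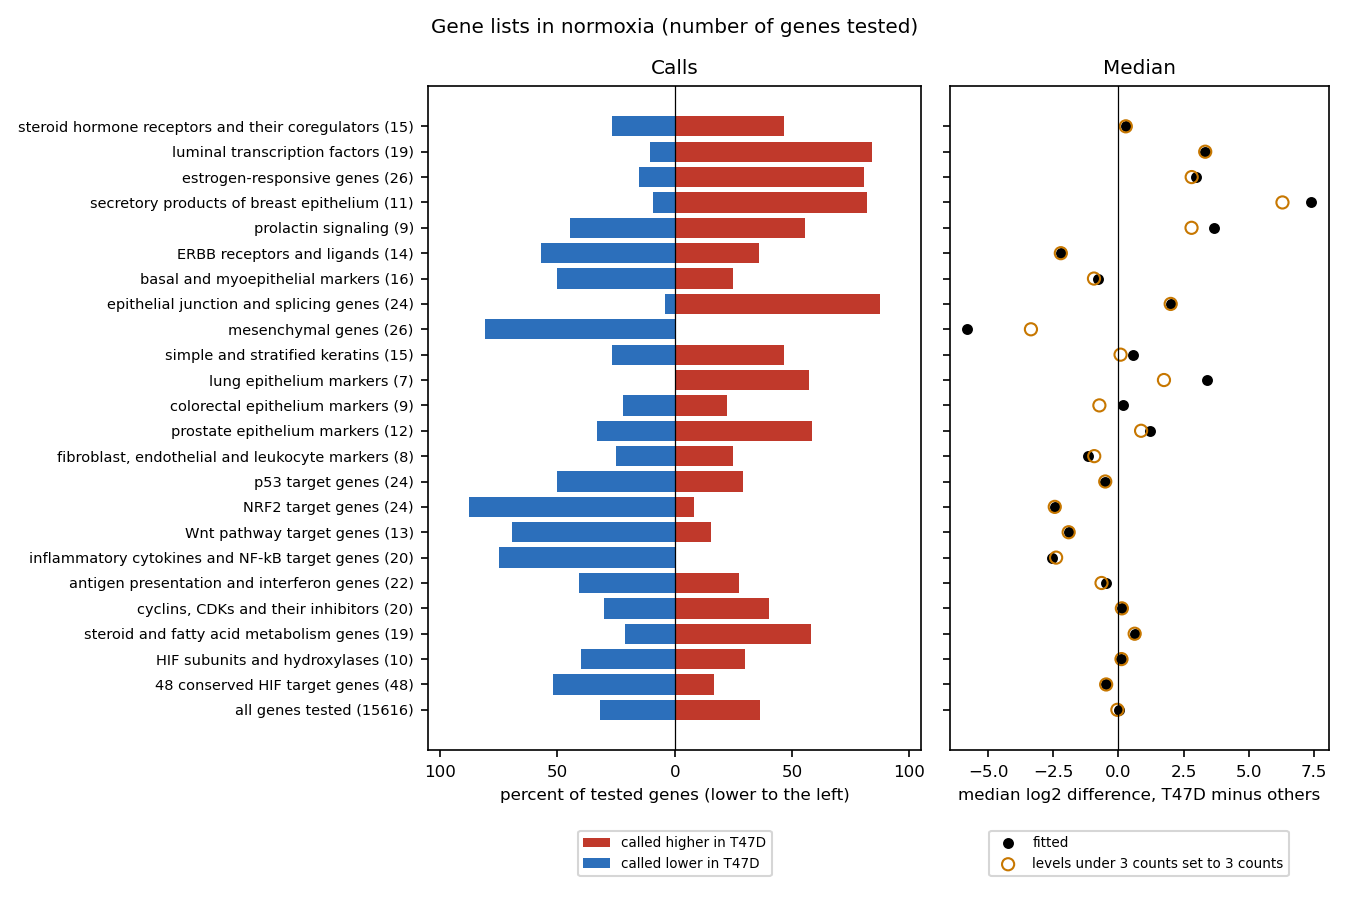
Left, percent of tested genes in each list that were called higher (red, to the right) or lower (blue, to the left) in T47D, with the number tested in parentheses and all genes at the bottom. Right, median log2 difference between T47D and the mean of the other lines, fitted (filled) and with levels under 3 counts set to 3 counts (open), from 7.41 for secretory products to −5.82 for mesenchymal genes.

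Secretory products of breast epithelium included several genes with RNA in T47D and almost none elsewhere. Of the 19 on the list, 11 passed the filter on low counts and 8 did not. Of the 11, 4 passed only with the T47D libraries and so had to differ. As a description, 9 of the 11 were higher and 1 was lower, with a median log2 fold change of 7.41, or 6.30 with levels set to the floor and from 5.15 (DESeq2) to 9.25 (filter at a mean of 50 counts) under other settings. PIP, prolactin-induced protein (chr7:142829170-142836832), was at 377, 297 and 471 CPM in T47D, with 63599 counts against 1 count in the other 9 libraries (ratio 158958, exact 95% interval 28528.7 to 6278580 for counting error alone). AZGP1, a zinc-binding glycoprotein, was at 300.5, 167 and 187 CPM and at most 0.5 elsewhere. MUC1, the apical mucin, was at 201, 195 and 282 CPM and 15.1 times PC3, the highest other line (log2 fold change 6.30 ± 0.20, adjusted p = 1.40e-13). TFF3, a second trefoil peptide, was at 52.7, 48.6 and 28.7 CPM against at most 0.519.

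Milk proteins and mammaglobin were not detected. CSN2, CSN3 and LALBA, which encode caseins and alpha-lactalbumin, and SCGB2A2, mammaglobin, had 0 counts in all 12 libraries, which allows up to 0.130 CPM in the shallowest of them, and LTF, lactoferrin, had 0 counts in T47D. MUCL1, a small breast mucin, was at 0.485, 0.303 and 0.514 CPM in T47D and 0 elsewhere, a level close to the floor. LCN2, lipocalin, was lower (−3.98 ± 0.70), and without PC3 among the other lines it was not called (adjusted p = 0.101). CLU, clusterin, was called higher (2.62 ± 0.19), but A549 at 842 ± 48.4 CPM lay within the T47D range of 642, 509 and 1169.6.

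The anterior gradient genes AGR2 and AGR3, which encode protein disulfide isomerases of secretory cells, lie next to TSPAN13, a tetraspanin gene, on the short arm of chromosome 7. TSPAN13 (chr7:16793380-16824161) was at 961, 862 and 852 CPM, 8.81 times the highest other line. AGR2 (chr7:16831435-16873057) was at 1447, 1644 and 842 CPM against 75.4 ± 29.5 in A549, 0 in HCT116 and 54 ± 17.2 in PC3, which is 17.4 times the highest line. AGR3 (chr7:16899036-16921611) was at 188, 218 and 58.1 CPM and had 0 counts in all 9 other libraries, which makes it at least 1193-fold higher. The third T47D library was the lowest of the group for AGR2 and AGR3 and remained above every library of the other lines. Neighbors within 1 Mb showed no difference of this size. BZW2 was not called (0.16 ± 0.13, adjusted p = 0.281, and 0.41 without HCT116), ANKMY2 and AHR were lower (−0.60 ± 0.15 and −0.63 ± 0.14) but not called without HCT116 (−0.16) and without PC3 (−0.18) respectively, and SNX13 was higher (0.78 ± 0.12).

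Promoters of 3 genes that the naming rule placed on the higher side are shown so that their sequence can be read beside their levels. They were picked because each holds the forkhead or the GATA motif, which most genes named as higher do not. Of the 18 such genes with a promoter, 2 held the forkhead motif and 1 the GATA motif. The 250 bases before the RefSeq start are given 5′ to 3′ on the gene's strand (RefSeq, GRCh38.p14, minus strand for all 3). They cover chr14:94323337-94323586 for SERPINA6, chr11:34511725-34511974 for ELF5 and chr7:16805000-16805249 for AGR2. Capitals mark the forkhead motif TGTTTAC or its reverse complement in the first 2 and the GATA motif AGATAA in the third.
SERPINA6: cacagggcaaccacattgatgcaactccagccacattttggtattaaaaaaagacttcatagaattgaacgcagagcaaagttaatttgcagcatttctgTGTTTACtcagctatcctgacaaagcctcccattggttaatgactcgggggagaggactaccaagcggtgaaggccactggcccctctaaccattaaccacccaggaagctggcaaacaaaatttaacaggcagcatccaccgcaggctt
ELF5: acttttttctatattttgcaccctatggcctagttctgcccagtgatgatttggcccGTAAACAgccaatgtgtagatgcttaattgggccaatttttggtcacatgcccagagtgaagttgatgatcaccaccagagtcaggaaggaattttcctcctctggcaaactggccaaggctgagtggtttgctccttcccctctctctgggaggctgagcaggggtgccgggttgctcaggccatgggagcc
AGR2: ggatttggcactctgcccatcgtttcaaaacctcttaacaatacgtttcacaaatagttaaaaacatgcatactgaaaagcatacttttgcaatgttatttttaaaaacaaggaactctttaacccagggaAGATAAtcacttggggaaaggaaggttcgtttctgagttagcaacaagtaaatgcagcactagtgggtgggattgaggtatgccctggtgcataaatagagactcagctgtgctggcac
On either strand, TGTTTAC occurs in 2.98% and AGATAA in 9.37% of the 27305 RefSeq promoters of this length, against 1.88% and 4.83% for the genes tested, and neither motif contains the other. The estrogen response element, GGTCA and TGACC with 3 bases of any kind between them, occurs in 0.0439% of the 27305. Of the 26 estrogen-responsive genes, 19 had a promoter, and none of these held it. At so low a share, its absence from 19 promoters says nothing about these genes. A match is a description of letters and was not tested as a binding site. A promoter was found for 77.2% of the genes tested, too few for a comparison of promoter content between groups of genes.

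SERPINA6 encodes corticosteroid-binding globulin, the carrier of cortisol. It was at 1171, 909 and 1237 CPM in T47D and at most 1.33 CPM in any other library, and it was 1 of 2 genes that met both parts of the naming rule (the largest log2 fold changes and the largest CPM differences). The other was PRLR, the prolactin receptor (chr5:35048861-35230589), at 1702, 1837 and 2279.9 CPM in T47D against at most 0.467 in the 9 others. Its relative GHR, the growth hormone receptor, was at 137, 123 and 158 CPM, and only PC3 held some, at 4.67 ± 0.312 CPM. Both cytokine receptors were thus well above all other libraries.

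Downstream of the prolactin receptor the genes split. CISH, a feedback inhibitor that STAT5 induces, was higher (3.69 ± 0.20, above every library), whereas the related inhibitors SOCS2 and SOCS3 were lower than in every other library (0.388, 0.0454 and 0.398 CPM against 16.6 to 40.7 for SOCS2, and a log2 fold change of −3.32 ± 0.20 for SOCS3). JAK2, the kinase bound to the receptor, was lower (−1.11 ± 0.16, adjusted p = 8.86e-06). STAT5A and STAT5B were called higher (5.98 ± 0.40 and 5.67 ± 0.20), but A549 had 7.28 ± 0.412 and 55.8 ± 2.57 CPM against 3.47 ± 0.867 and 51.4 ± 4.64 in T47D, and the calls came from HCT116 and PC3. In all, 5 of 9 genes of prolactin signaling were higher and 4 were lower, against 36.2% and 31.7% of all genes. Their median was 3.69 (2.81 at the floor). Without PC3 among the other lines the median was 1.35.

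The ERBB family of growth factor receptors was divided between its members. EGFR was lower in T47D, at 5.43, 6.45 and 6.92 CPM against 144 ± 51 in A549, 28 ± 9.01 in HCT116 and 268 ± 56.6 in PC3 (log2 fold change −4.03 ± 0.27, adjusted p = 1.43e-09). Its partners ERBB2, ERBB3 and ERBB4 were higher than in every other library (1.41 ± 0.12, 4.20 ± 0.13 and 9.83 ± 0.27), with ERBB3 at 240.1, 257 and 312 CPM and 7.33 times the highest line. Of the ligands, EGF was higher (3.75 ± 0.20). TGFA, AREG, HBEGF, EREG and NRG1 were lower, with EREG at 0.17, 0.0151 and 0.0498 CPM against a mean of 1167 in HCT116. Over the 14 genes tested, 5 were higher and 8 were lower, against 36.2% and 31.7% of all genes. Among the 14, 2 had passed the filter with no T47D library, so their direction says little. The median was −2.22 (−1.44 without PC3).

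Epithelial junction genes and the epithelial splicing regulators formed one of the most even lists, with 21 of 24 higher, 1 lower and a median of 2.0 (1.10 without A549, 2.86 without PC3). CDH1, E-cadherin (chr16:68771195-68869440), was at 418, 349 and 679 CPM against 12.9 ± 4.28 in A549, 23.6 ± 2.79 in HCT116 and 209 ± 39.6 in PC3. Even the highest PC3 library, at 239 CPM, lay below the lowest T47D library (log2 fold change 3.60 ± 0.19, adjusted p = 6.79e-11). Claudin 3 (CLDN3, 4.43 ± 0.19), plakoglobin (JUP, 2.36 ± 0.18), the membrane protease matriptase (ST14, 5.23 ± 0.17), the vesicle GTPase RAB25 (6.02 ± 0.16) and the splicing factor ESRP2 (4.80 ± 0.20) were likewise above all 9 libraries. ESRP1 was at 201, 164 and 224 CPM, within the PC3 range and far above A549 at 0.0187 CPM. Its log2 fold change of 4.50 fell to 0.26 (adjusted p = 0.246) without A549. EPCAM, the epithelial adhesion molecule, was called higher (1.12 ± 0.19) although HCT116 and PC3 had more of it (326 ± 46.2 and 409.6 ± 6.93 CPM against 179 ± 41.8). Without A549 it was lower (−0.96, adjusted p = 0.00045). TJP1, a tight junction scaffold, was the member called lower (−1.49 ± 0.21), and OCLN and SPINT2 were not called (adjusted p = 0.979 and 0.759).

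Of 26 mesenchymal genes, 21 were lower and 0 were higher. The fitted median was −5.82, and −3.36 with levels set to the floor, because many T47D values were at or near 0. In 12 of the 26, no T47D library reached the level that the filter asks of a library. The direction of those 12 therefore says little, and the lack of higher calls among them is no result. The count of lower calls and the medians were taken with those 12 included. Without A549 the fitted median was −4.24, and without HCT116 it was −6.77. VIM, vimentin, was at 0.8, 1.01 and 0.78 CPM in T47D against 1303 ± 254 in A549, 4.92 ± 0.405 in HCT116 and 337 ± 38.3 in PC3. HCT116, also an epithelial line, was thus the nearest (log2 fold change −7.21 ± 0.24, adjusted p = 2.51e-13). ZEB1, a repressor of E-cadherin, was at 0.194, 0.121 and 0.0166 CPM against at least 5.32 elsewhere (−6.90 ± 0.36). AXL, a receptor kinase, was at 0.0727, 0.333 and 0.199 CPM against at least 59.6 (−9.94 ± 0.38).

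The list holds a ligand and a receptor of TGF-β signaling. TGFB1 was at 1.38, 1.38 and 1.63 CPM against at least 44.7 in other libraries (−6.17 ± 0.20). TGFBR2, its type II receptor, had 1 count over the 3 T47D libraries and 51146 in the other 9, a ratio of 20463.5 with an exact 95% interval of 3672.64 to 808283 for counting error alone. CD44, the hyaluronan receptor, and ANXA1, annexin A1, were lower, with log2 fold changes of −3.30 ± 0.20 and −7.23 ± 0.41. FN1, fibronectin, was lower (−0.59 ± 0.20, adjusted p = 0.0173), but T47D at 42.5, 43.2 and 56.5 CPM lay above HCT116 at 4.88 ± 0.668. Without A549 the FN1 value was 0.48 (adjusted p = 0.0366), and it missed the threshold without the first T47D library (adjusted p = 0.082) or the second (adjusted p = 0.0773). LOX and S100A4 were not called (adjusted p = 0.0797 and 0.108), and S100A4 was called lower without the first T47D library (−0.77, adjusted p = 0.0498) or without PC3 among the other lines (−2.61). LOX was called lower without HCT116 (−0.94, adjusted p = 0.028).

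Keratins of simple epithelium were abundant in all lines, with differences by gene. KRT19 was at 2900.3, 2566 and 4648 CPM in T47D and at most 965 elsewhere (log2 fold change 2.90 ± 0.19, adjusted p = 9.37e-10). KRT8 was higher (1.27 ± 0.21), though A549 at 4840.1 ± 875 CPM lay within the T47D range of 4555, 3441 and 6708. KRT18, its partner, had a log2 fold change of 0.55 ± 0.20 (adjusted p = 0.0226), which was −0.038 without HCT116 and 0.25 (adjusted p = 0.286) without the third T47D library. KRT7 was called lower (−0.996 ± 0.16) but turned to 0.75 (adjusted p = 0.00167) without A549. KRT81, a hair keratin with close paralogs, was at 0.582, 0.167 and 0.431 CPM in T47D and 0.584 ± 0.185 in HCT116 against 4669.96 ± 87.1 in A549 and 1796 ± 62.3 in PC3. Across 15 keratins, 7 were higher and 4 were lower, against 36.2% and 31.7% of all genes. Among the 15, 2 had passed the filter with no T47D library. The median was 0.55, or −0.47 without HCT116 and 0.08 at the floor.

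Basal and myoepithelial markers were mixed. Their summed level was 206 to 270 CPM in T47D, most of it ITGB4. It was at least 637 CPM in every other library, where VIM (A549) or CAV1 (HCT116 and PC3), which are also mesenchymal genes, was the most abundant member. KRT5 and KRT14, the basal keratins, had no library above the floor except KRT14 in the third T47D library at 0.133 CPM. TP63, the basal regulator, was at 0.509, 0.197 and 0.465 CPM in T47D and called higher against a mean that included HCT116 at 0.00555 CPM, with A549 at 3.9. KRT17, at 0.872, 0.848 and 0.697 CPM, was called higher at a similarly low level. The other members called higher were CDH3, P-cadherin, at 27.9, 29.5 and 44 CPM, and ACTA2, smooth muscle actin, at 13.2, 12.7 and 12.5 CPM (3.29 ± 0.22). CDH3 lay below HCT116 and PC3 and was −1.42 without A549, and ACTA2 overlapped A549 at 12.1 ± 1.66 CPM. ITGB4, the partner of ITGA6, was at 121, 132 and 161 CPM and called lower (−0.43 ± 0.15, adjusted p = 0.0201), a call lost without the first T47D library (adjusted p = 0.115) or the second (adjusted p = 0.0671). ITGA6, a laminin-binding integrin, and OXTR, the oxytocin receptor, were lower (−2.50 and −4.15 log2). Of 16 tested, 4 were higher and 8 were lower, but 3 had passed the filter with no T47D library. The median was −0.80 (−0.94 at the floor, −1.83 with a filter at a mean of 50 counts).

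The 15 genes with the lowest log2 fold changes among those with at least 10 CPM in every other line came from several pathways. Of these, 10 had 0 counts in all 3 T47D libraries. For those 10, T47D was at least 108-fold to 1121-fold lower than the lowest other line. MSN, moesin, which links actin to the membrane (chrX:64808257-64961793), was at 0 in T47D and at 522, 479 and 708 CPM in A549, 136, 83.2 and 134 in HCT116 and 724, 860.2 and 581 in PC3, at least 909-fold lower. AGPS, an enzyme of ether lipid synthesis, was at least 723-fold lower. HMGA2, a fetal chromatin protein, was at least 649-fold lower. CDCA7, the kinase gene RPS6KA3, ANKS6, MSL3P1 and ACN9 were at 0 as well, with bounds of 433, 331, 252, 134 and 108.

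The other members of this group kept a few counts. LDHB, the lactate dehydrogenase subunit of aerobic tissue, was at 0.0969, 0 and 0 CPM in T47D against 2089 ± 77.5 in A549, 1785 ± 444 in HCT116 and 535 ± 17.6 in PC3. GSTP1, a glutathione transferase, had 3 counts in T47D and 173701 in the others (ratio 23166, exact 95% interval 7926.83 to 112335). FABP5, a fatty acid carrier with pseudogene copies and therefore uncertain, had 1 count against 141363. Over the whole table, 25 genes were at 0 in T47D with at least 5 CPM in every other line, and 13 of them were at 0 in the 3 hypoxic T47D libraries too.

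Of the 15, 3 lie side by side on the long arm of chromosome 7. TES, a LIM protein of focal adhesions (chr7:115850560-115898837), and CAV2, caveolin 2 (chr7:115927434-116148595), had 0 counts in T47D and were at least 888-fold and 1121-fold lower. CAV1, caveolin 1, the coat protein of caveolae (chr7:116165048-116201233), had 1 count against 260298 in the other 9 libraries (ratio 104145, exact 95% interval 18691.9 to 4113540). The next gene, MET, the receptor of hepatocyte growth factor (chr7:116312250-116438431), was at 0.0969, 0.167 and 0 CPM in T47D against at least 199 CPM in every other library.

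Genes on both sides of this run had counts in T47D. MDFIC, before TES, was at 18.7, 17.2 and 23.3 CPM and not called (−0.25 ± 0.15, adjusted p = 0.154). Without HCT116 among the other lines MDFIC was called lower (−0.83, adjusted p = 0.000202). CAPZA2 and ST7, after MET, were at 189.6, 228 and 118 and 12.8, 9.95 and 14.7 CPM, with log2 fold changes of −0.72 ± 0.26 and −0.47 ± 0.15 (adjusted p = 0.0209 and 0.0106). Neither call was kept under all settings, since CAPZA2 missed the threshold without the third T47D library (adjusted p = 0.121) and ST7 without the second (adjusted p = 0.0812). TFEC, between MDFIC and TES, had at most 0.0809 CPM as a line mean and was not tested.

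**Figure D3:**
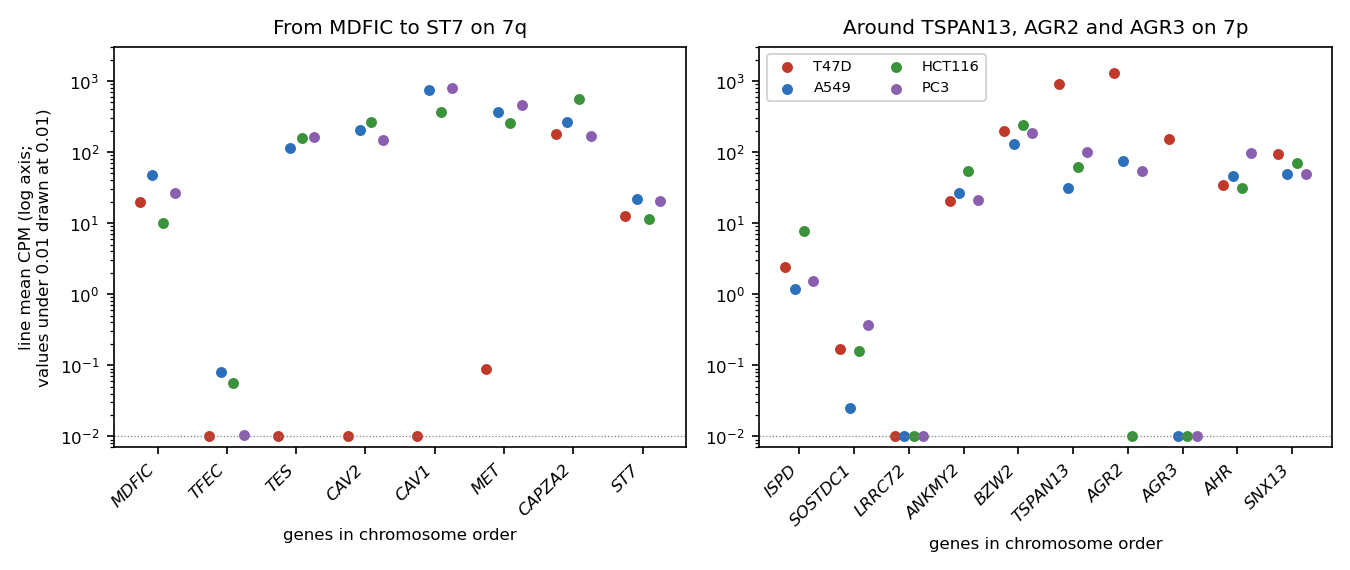
Mean level in each line (CPM after TMM scaling, log axis, values under 0.01 drawn at 0.01, n = 3 libraries) of genes in chromosome order. On 7q the T47D points of TES, CAV2 and CAV1 lie at the bottom and that of MET at 0.0878 CPM between MDFIC and CAPZA2, and on 7p the T47D points of TSPAN13, AGR2 and AGR3 lie above those of the other lines.

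The promoters of TES and CAV1, which lie on either side of CAV2, are printed to show what precedes genes at or near 0 counts in T47D. The 250 bases before the RefSeq start on the plus strand are chr7:116210289-116210538 for TES and chr7:116524759-116525008 for CAV1 (RefSeq, GRCh38.p14), with each CG in capitals.
TES: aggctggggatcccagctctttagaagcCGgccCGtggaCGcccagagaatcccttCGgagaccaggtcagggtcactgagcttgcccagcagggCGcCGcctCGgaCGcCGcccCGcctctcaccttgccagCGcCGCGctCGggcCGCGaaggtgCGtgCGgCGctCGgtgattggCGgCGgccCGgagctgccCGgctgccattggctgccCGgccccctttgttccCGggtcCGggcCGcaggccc
CAV1: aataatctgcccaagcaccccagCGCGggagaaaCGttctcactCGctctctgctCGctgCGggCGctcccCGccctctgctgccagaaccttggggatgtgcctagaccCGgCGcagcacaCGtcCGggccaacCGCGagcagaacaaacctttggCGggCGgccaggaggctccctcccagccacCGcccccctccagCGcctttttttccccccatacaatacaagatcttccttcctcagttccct
TES holds 28 CG pairs in this window and CAV1 18, where the median over the tested genes with a promoter was 20.

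Markers of the tissues from which the other lines came differed by tissue and were not all low in T47D. Of the 16 colorectal markers, CDX1, CDX2, CDH17, LGR5, HNF4A, GPA33 and FABP1 had 0 counts in T47D. Not all of them were present in HCT116. CDX1 was at 0 in all 12 libraries. As line means, CDH17 was at 15.2 CPM in A549 but under the floor in HCT116, and CDX2 was at 12.3 CPM in HCT116. ASCL2, a Wnt-controlled stem cell factor, was at 7.39, 9.34 and 13.1 CPM and higher than in every other library, HCT116 included, where it was at 0. Of 9 colorectal markers tested, 2 were higher and 2 were lower, but 3 had passed the filter only with the T47D libraries and 4 with no T47D library, so the direction of these 7 says little. Their median of 0.16 changed sign under several settings. Of 14 lung markers, 7 passed the filter, 2 of them only with the T47D libraries. Of the 7, 4 were higher and 0 were lower, and the 14 summed to 156 to 192 CPM in T47D against 31.1 to 39.9 in A549. The sum was led by the lipid transporter ABCA3 (149.7, 171 and 185 CPM against at most 41.2) and the higher members included the ciliary factor FOXJ1 (4.67 ± 0.46). SFTPA2, a surfactant protein gene with a near-identical copy and therefore uncertain, was at 0.509, 0.348 and 0.448 CPM in T47D and at 0 in the other 9 libraries. Of the other defining genes, NKX2-1, SFTPA1 and SCGB1A1 had 0 counts in T47D and no line mean of any of the 3 was over 0.977 CPM. Of 12 prostate markers tested, 7 were higher and 4 were lower. Among these 12, 1 had passed the filter only with the T47D libraries and 2 with no T47D library. The list summed to 126 to 166 CPM in T47D, 288.5 to 333 in PC3, 353 to 422 in A549 and 97.9 to 139 in HCT116. The median was 1.22 and ranged from 0.092 with a filter at a mean of 50 counts to 1.92 without the third PC3 library. TMPRSS2 was at 9.28, 13 and 16.5 CPM against 6.72 ± 1.08 in PC3, and KLK2 and KLK3 were at 0. HOXB13, the homeobox gene of the prostate, was at 0 in T47D and at 78.3 ± 4.05 CPM in PC3. It was also present in A549 (12.1 ± 0.229 CPM) and HCT116 (9.96 ± 2.29 CPM).

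Markers of fibroblasts, endothelium and leukocytes were tested for 8 genes, with 2 higher, 2 lower and a median of −1.19. Of the 8, 1 had passed the filter only with the T47D libraries and 5 with no T47D library. The median was −2.36 without HCT116, −0.11 without PC3 and −1.98 without the second T47D library. COL1A1, a collagen chain, was at 32.8, 57.2 and 31.5 CPM in T47D, above every other library (highest 26.5). Its partner chain COL1A2 did not pass 0.409 CPM in T47D, and DCN, PDGFRB, PECAM1, VWF, CDH5, PTPRC, CD3E and LYZ were at 0 or near the floor, with at most 0.133 CPM in a T47D library. CD68 was lower (−4.07 ± 0.20).

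Targets of the oxidative stress factor NRF2 were the list with the largest share of lower calls, 21 of 24, against 2 higher and a median of −2.45. Among the 24, 2 had passed the filter with no T47D library, so the direction of those 2 says little. Without A549 among the other lines the median was −0.85. In 17 of the 24, T47D had the lowest mean of the 4 lines, as it had for 27% of all genes tested. FTL, the ferritin light chain, was at 55.5, 58.2 and 91.8 CPM in T47D against 8211 ± 313 in A549, 1379 ± 191 in HCT116 and 469 ± 19.7 in PC3 (log2 fold change −4.67 ± 0.24, adjusted p = 4.79e-11). TXNRD1, thioredoxin reductase, was at 191, 139 and 263 CPM against at least 437 (−2.52 ± 0.23). ME1, malic enzyme, was at 0.121, 0.0605 and 0.0498 CPM against at least 83.6 (−10.86 ± 0.26). A549 had by far the highest level of many members, among them TXNRD1 and the AKR1C genes, whose near-identical copies make their counts uncertain. NQO1, the quinone reductase often used as the readout of this pathway, was not called (646, 422 and 658 CPM, adjusted p = 0.325). Without PC3 among the other lines NQO1 was called lower (−1.09, adjusted p = 0.000539). OSGIN1 was higher (1.97 ± 0.14). EPHX1 was called higher (0.52 ± 0.18), a call lost without the third T47D library (adjusted p = 0.332).

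Of 20 inflammatory cytokines and NF-κB targets tested, 0 were higher and 15 were lower, with a median of −2.57 (−3.82 without HCT116). Among these 20, 9 had passed the filter through the other lines alone. The direction of those 9 therefore says little, and the lack of higher calls among them is no result. LIF, an IL6-family cytokine, was at 0.0727, 0.56 and 0.216 CPM in T47D against 67.2 to 108 elsewhere (−8.19 ± 0.39). CXCL8, listed as IL8, was at 0 in T47D and at 5.32 ± 3.23 CPM in A549, 2.44 ± 1.12 in HCT116 and 895 ± 256 in PC3, at least 18.8-fold lower than in the lowest line. NFKBIA, the feedback inhibitor, was not called (−0.05 ± 0.15), but without HCT116 it was called lower (−0.72, adjusted p = 0.000199). Among 22 antigen presentation and interferon genes, 6 were higher and 9 were lower, against 36.2% and 31.7% of all genes. Their median was −0.47 (−0.72 without the first T47D library, −0.12 without PC3). HLA-B, which shares sequence with other HLA genes, was at 194, 144 and 218 CPM and above all other libraries, whereas ISG15 and IRF1 were below them (−4.05 ± 0.23 and −2.45 ± 0.19). OAS2 was higher (4.84 ± 0.35), and B2M was not called, with T47D libraries at 478, 577 and 265 CPM. Without HCT116 B2M was called higher (0.69, adjusted p = 0.0155).

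Wnt targets were lower in 9 of 13 and higher in 2, with a median of −1.90. This median was −3.51 without PC3, −0.64 without HCT116 and −3.36 without the second T47D library. Of the 13, 2 had passed the filter only with the T47D libraries and 3 with no T47D library. DKK1, a secreted Wnt inhibitor, was at 0.679, 0.469 and 0.614 CPM against at least 144 in other libraries (−9.38 ± 0.25), and TCF7 was lower (−3.45 ± 0.22). LEF1, another transcription factor of the pathway, was at 9.38, 11 and 9.61 CPM in T47D and at most 0.403 elsewhere. AXIN2 was lower (−1.90 ± 0.32) through HCT116 at 18.6 CPM, and was not called without that line (adjusted p = 0.14).

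For p53 targets, 7 of 24 were higher, 12 were lower (36.2% and 31.7% of all genes), and the median was −0.51 (−0.071 without HCT116, −0.84 without PC3). Among the 24, 1 had passed the filter with no T47D library. GDF15, a stress cytokine, was at 2.4, 2.23 and 3.62 CPM against at least 35.1 (−4.46 ± 0.28), and BAX, PLK3 and TIGAR (listed as C12orf5) were lower than in every other library (−1.96 ± 0.15, −5.70 ± 0.23 and −2.69 ± 0.13). CDKN1A, the cell cycle inhibitor p21, was lower (−1.10 ± 0.18), with PC3 at 25.5 ± 4.14 CPM below T47D at 39.1, 33.4 and 48.1. TP53I3 was higher (3.20 ± 0.17), and MDM2 was called higher (0.70 ± 0.13) only with PC3 in the mean, since its value without PC3 was 0.030.

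Of 20 cell cycle regulators, 8 were higher and 6 were lower, shares close to the 36.2% and 31.7% of all genes, with a median of 0.13, which was −0.058 without PC3 and 0.47 without HCT116. CDK6, a partner of D-type cyclins, was at 3.37, 3.16 and 2.34 CPM in T47D against 51.2 to 118 elsewhere (−4.69 ± 0.31). CCNE1 was lower (−1.64 ± 0.16) and CCNE2 higher (1.57 ± 0.17). CDKN2A was at 53.8, 48.1 and 48.8 CPM in T47D, below the HCT116 and PC3 means of 71.4 and 59.6, and was called higher only because A549 was at 0 (−0.31, adjusted p = 0.104, without A549). Genes of steroid and fatty acid metabolism were higher in 11 of 19 and lower in 4, against 36.2% and 31.7% of all genes. Among the 19, 1 had passed the filter only with the T47D libraries and 1 with no T47D library. Their median was 0.64. HSD17B1, which makes estradiol from estrone, was at 34.8, 35.2 and 45.2 CPM against at most 5.67 (3.19 ± 0.13), and STS, which frees estrone from its sulfate, was higher (2.99 ± 0.21). FASN, fatty acid synthase, was higher (1.21 ± 0.24), and FADS1 was lower (−1.81 ± 0.15).

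The second part of the naming rule took genes with the largest differences in CPM. On the higher side these were KRT19, PRLR, AGR2, XBP1, SERPINA6, MALAT1, SLC9A3R1, IGFBP5, CTSD and TSPAN13. SLC9A3R1, a scaffold of apical membranes, was at 850.2, 937 and 1405 CPM against at most 112 (3.60 ± 0.16), and IGFBP5 was at 667, 936 and 1144 CPM against at most 1.34. MALAT1, a nuclear noncoding RNA, spread widely within T47D, at 1963, 1512 and 490.3 CPM, but stayed above the highest other library at 348. On the lower side the rule named GAPDH, ACTG1, HSPD1, ANXA2, LDHA, DCBLD2, HMGA1, EIF5A, YBX1 and RPL10. GAPDH, often used as a reference gene, was at 935, 767 and 1271 CPM against at least 2679 in every other library (−1.95 ± 0.21, adjusted p = 5.01e-07). ACTG1 was also lower (−1.33 ± 0.20). Several of these genes have processed pseudogenes, and fragments without a unique position had been removed, so their levels are uncertain while the same removal applied to all libraries. DCBLD2, a membrane receptor, and HMGA1, a chromatin protein, were lower, with log2 fold changes of −3.74 ± 0.19 and −2.87 ± 0.20. The remaining genes with the largest log2 fold changes were PTGER3, NCAM2, GGT6, MGP, KCNK2, THNSL2, LRRN1 and ZNF626. MGP, matrix Gla protein, was at 752, 637 and 499.6 CPM and at most 0.81 elsewhere. THNSL2, LRRN1 and ZNF626 had 0 counts in all 9 other libraries and were at least 186-fold, 184-fold and 134-fold higher.

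The oxygen-sensing machinery was called about as often as genes at large. HIF1A was lower in T47D (138, 112 and 156 CPM, log2 fold change −1.19 ± 0.16, adjusted p = 7.23e-06), and HCT116 at 161 ± 30.6 CPM was close to it. EPAS1, which encodes HIF-2α, was lower (−0.95 ± 0.21) with HCT116 at 13.9 ± 0.777 CPM below T47D at 28.6, 45.3 and 63.9. The call was lost without A549 (−0.04, adjusted p = 0.886). ARNT, the shared partner subunit, was higher than in every other library (0.72 ± 0.13), and EGLN1, the main HIF prolyl hydroxylase, was lower (−1.07 ± 0.17). EGLN3 was not called (adjusted p = 0.834), but without A549 it was called higher (0.77, adjusted p = 0.0312). Of 10 subunits and hydroxylases, 3 were higher and 4 were lower, close to the 36.2% and 31.7% of all genes, and the median was 0.11. This median was −0.16 without PC3 and −0.030 without the third T47D library.

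Of 48 conserved HIF target genes, 25 were lower in normoxic T47D and 8 were higher, against 31.7% and 36.2% of all genes. The median log2 fold change of the 48 was −0.47. The study chose this list, of genes bound by HIF and induced in each of its lines, on samples that include these, so the count is not independent evidence of a direction. SLC2A1, the glucose transporter GLUT1, was at 31.1, 26.3 and 51.2 CPM against at least 117 elsewhere (−2.60 ± 0.23). LDHA was at 546, 343 and 538 CPM against at least 1134 (−2.32 ± 0.20), and the lactate exporter SLC16A3 at 25.2, 25.6 and 34.2 against at least 44.4 (−2.54 ± 0.18). NDRG1, a stress-induced differentiation gene, was at 1.91, 2.54 and 4.2 CPM against at least 42.3 (−5.24 ± 0.30), and the glycolytic genes GPI, PGK1 and ENO1 were lower too (−2.21 ± 0.22, −1.15 ± 0.22 and −1.05 ± 0.24). ADM, adrenomedullin, was below every other library (−2.01 ± 0.16). STC2, the histone demethylase gene KDM4B and NPEPPS, which has a close paralog, were higher (3.03 ± 0.17, 3.03 ± 0.15 and 1.41 ± 0.15).

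The same contrast in the 12 hypoxic libraries, none of which entered the normoxic fit, called 5931 of 15514 genes higher (38.2%) and 4873 lower (31.4%). Of the genes called higher in normoxia, 4982 were called higher in hypoxia, 88.2% of the normoxic and 84% of the hypoxic calls. For lower calls the count was 4167, 84.1% and 85.5%. Among genes without overlap in normoxia, 2539 of the higher (95.3%) and 2267 of the lower (95.7%) were called the same way in hypoxia. Only 31 genes were called in opposite directions in the 2 states. ESR1 was at 133 ± 29.4 CPM (mean ± SD, n = 3) and PGR at 726 ± 197 CPM in hypoxic T47D. The log2 fold change of ESR1 was 11.90 ± 0.24. PGR had a mean of 0 CPM in hypoxic A549, HCT116 and PC3, so no exact fold change can be given for it.

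A test of the difference itself, the interaction of line and oxygen in a fit of all 24 libraries, called 2.39% of 16089 genes, 247 larger and 138 smaller in hypoxia. LDHA reached 3847 ± 449 CPM in hypoxic T47D against 7630.1 ± 1383 in A549, 4651 ± 251 in HCT116 and 5057 ± 546 in PC3, and the contrast moved from −2.32 to −0.55 (interaction 1.75 ± 0.22, adjusted p = 3.85e-05). SLC16A3 and NDRG1 also came closer to the other lines (interaction 1.35 ± 0.18 and 2.70 ± 0.38). PGK1 and ENO1, lower in normoxia, were at 0.21 ± 0.14 (adjusted p = 0.184) and 0.28 ± 0.12 (adjusted p = 0.0452) in hypoxia. AGR2 moved the other way, to 527 ± 55 CPM in hypoxic T47D, with an interaction of −2.59 ± 0.63 (adjusted p = 0.0282). HCT116, under the floor in both states, takes part in that value, and without it the interaction was −0.94 ± 0.32 (adjusted p = 0.138). Of the 48 HIF target genes, 13 were higher and 17 lower in hypoxia, against 38.2% and 31.4% of all genes, with a median of −0.13.

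**Figure D4:**
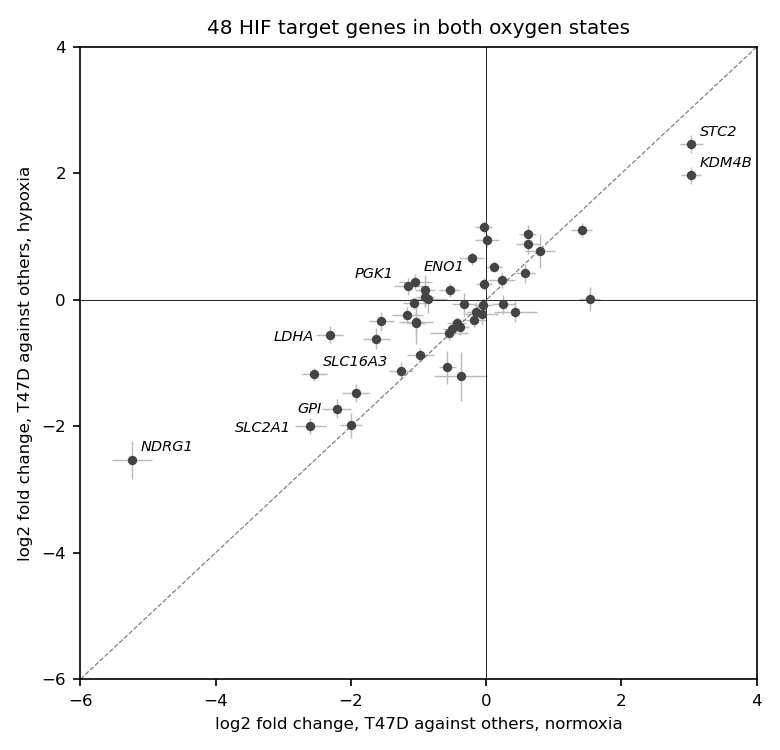
Log2 fold change of T47D against the mean of the other 3 lines for 48 HIF target genes in normoxia (horizontal) and hypoxia (vertical), with SE bars and a dashed line of equality. NDRG1, LDHA and SLC16A3 lie left of zero and above the line, and STC2 and KDM4B lie right of zero and below it.

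The differences were not spread evenly over the genome. On chromosome 2, 558 of 980 tested genes were lower in T47D (56.9%) and 157 were higher (16%), with a median log2 fold change of −0.73. Over the other chromosomes together, 30.6% were lower, 37.2% were higher and the median was 0.05. The 3 T47D libraries gave chromosome 2 medians of −0.74, −0.78 and −0.75, and the medians against A549, HCT116 and PC3 taken singly were −0.86, −0.57 and −0.73. These 3 contrasts share the T47D libraries. All 13 windows of 20 Mb along the chromosome had a negative median, from −0.31 to −1.31, so the lower levels ran over both arms. With A549, HCT116 or PC3 in the place of T47D the chromosome 2 median was 0.50, 0.08 or 0.19, contrasts in which T47D is part of the mean. The next lowest medians were −0.37 for chromosome 18 and −0.28 for chromosome 4, and the highest were 0.32 for chromosome 11 and 0.29 for chromosome 16.

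**Figure D5:**
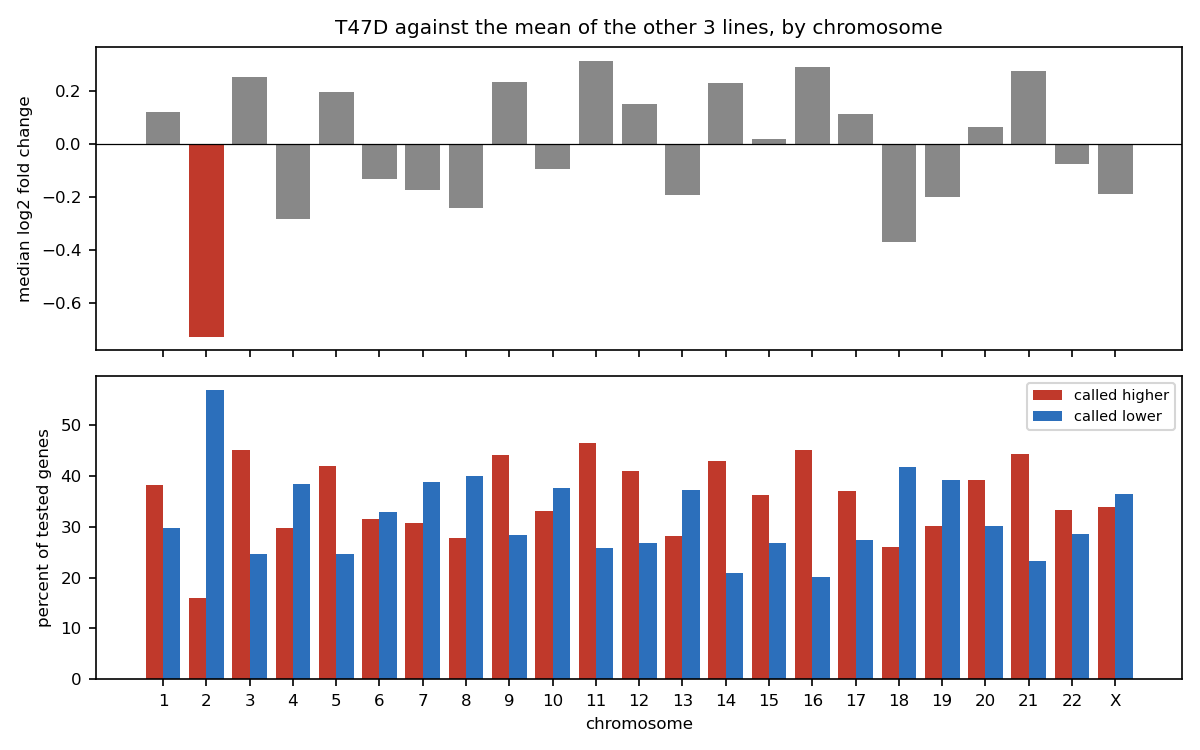
Top, median log2 fold change of T47D against the mean of the other 3 lines for the tested genes of each chromosome, with chromosome 2 in red at −0.73. Bottom, percent of those genes called higher (red) or lower (blue), with 56.9% lower and 16% higher on chromosome 2.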

How the data were processed

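Counts were analyzed for 12 normoxic and 12 hypoxic libraries of T47D, A549, HCT116 and PC3 cells, grouped by the cell line and oxygen labels. The deposited counts are whole numbers of fragments per gene symbol without normalization. Per the labels and the paper's methods, the authors selected polyadenylated RNA, prepared directional libraries, trimmed reads with Trim Galore 0.3.3, aligned them to GRCh37 (hg19) with HISAT2 2.05, removed fragments without a unique position with Picard 2.0.1 and counted on UCSC genes with HTSeq 0.5.4p3 in intersection-strict mode. The submitters' notes also name DESeq2. Removing such fragments lowers genes with near-identical copies, and the strand setting of HTSeq is not given in the sources used here, so overlapping, antisense and multicopy genes are uncertain.

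Computed here with edgeR 4.0.16 in R 4.3.3, genes passed filterByExpr, libraries were scaled by TMM and 1 quasi-likelihood fit of the 12 normoxic libraries with line as group gave T47D minus the mean of the other 3 lines. Benjamini-Hochberg adjustment of p values ran over all genes tested. SE is the log2 fold change divided by the square root of F. CPM were computed from the counts and TMM factors, with a prior count of 2 for log2 levels. TMM factors of T47D were 1.13, 1.17 and 1.05. A floor of 3 counts and exact 95% intervals cover counting error only, since no molecular identifiers were used. The hypoxic libraries were fitted in the same way, and the interaction of line and oxygen in 1 fit of 24 libraries.

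Genes were named by 2 rules among called genes without overlap: the 15 with the largest and the 15 with the smallest log2 fold changes with at least 10 CPM on the higher side, and the 10 each way with the largest CPM difference and a ratio of at least 2 to the nearest line. XIST, TSIX and chromosome Y genes were left out, and values of some list members are not reported here. Members of the gene lists were named where they define a list or moved most, and neighbors of named genes on chromosome 7 and the sums by chromosome were chosen after their values were seen. The libraries were taken by their labels, but the choice of this comparison and of the gene lists was made with earlier results of these data known.

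Chromosome positions came from GENCODE annotation on GRCh37, in which 21589 of 23106 symbols (93.4%) were found, 1491 through an older symbol. Promoters came from RefSeq on GRCh38.p14. Alternatives were DESeq2 1.42.0, RLE, upper-quartile and total-count scaling, omission of the filter, a filter at a mean of 50 counts, the replicate block, 1 fit of 24 libraries, stricter thresholds, glmTreat, each other line left out and each library left out. The values for chromosome 2 under these settings and the list medians with levels set to the floor were added after seeing the data. Replicate libraries differed by more than sampling noise (chi-square per degree of freedom of 15.4 to 322).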

Additional observations from a re-analysis of the deposited data

Results flagged for a closer look

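For 22 of the 213 genes named in the text that could be tested, the difference between T47D and the other lines was not the same in the 2 oxygen states, by the interaction of line and oxygen in edgeR with adjusted p under 0.05. Over all 16089 genes this share was 2.39%, and many of the named genes were named because they differed most. The value was larger in hypoxia for 15 genes and smaller for 7. No explanation was weighed.

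The study chose the 48 HIF target genes for HIF binding and induction by hypoxia, on samples that include these libraries. Their count here is therefore not independent evidence of a direction. Of the 48, 15 were called, 13 larger and 2 smaller in hypoxia. Among those named in the text, the interaction (hypoxia minus normoxia, log2) was 1.75 for LDHA, 1.35 for SLC16A3, 2.70 for NDRG1, 1.35 for PGK1, 1.32 for ENO1 and 1.001 for EGLN1, each lower in T47D in normoxia and nearer to the other lines in hypoxia. KDM4B, higher in T47D in both states, went the other way at −1.06, as did BHLHE40, a repressor named after its values were seen, at −1.53. Neither was called without HCT116 (−0.49 and −0.50). EPAS1 was further below the other lines in hypoxia (−1.04, adjusted p = 0.0483), the value nearest to the threshold.

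Of the luminal and hormone-related genes, AGR2 (−2.59), CA12 (−1.25), STS (−1.31) and the lipid transporter gene ABCA3 (−0.95) were closer to the mean of the other lines in hypoxia. CA12 had no excess over A549 in either state, at 571 against 629 CPM in normoxia and 512 against 1552 CPM in hypoxia. AGR2 was not called without HCT116 (−0.94, adjusted p = 0.138). CYP1B1, which hydroxylates estrogens, moved further above them (1.78), with hypoxic T47D at 344 ± 32.5 CPM (SD, n = 3) against a highest line mean of 49.4 in A549. Of the mesenchymal genes, LOX went from −0.81 in normoxia to 2.18 in hypoxia (2.98, adjusted p = 0.000135) and SPARC, a matrix protein near the floor in normoxic T47D, from −3.12 to 0.31 (3.41, adjusted p = 0.0482), and AXL (2.23) and VIM (1.04) remained far below the other lines in both states. The remaining genes were DKK1 (1.2), CDKN1A (1.02), IRF1 (0.89) and FTL (0.88). The calls of EPAS1, EGLN1, STS, ABCA3, SPARC, VIM, CDKN1A, IRF1 and FTL were also lost with at least 1 of the other lines left out of the mean.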

How the results depend on the processing

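Counts of genes called moved by over 1.5 times under 1 setting, a fold change over 2, which gave 3605 higher and 2836 lower in normoxia and 3782 and 2739 in hypoxia. Leaving out 1 library gave 5200 to 5987 higher, 4530 to 4984 lower, 2755 to 3171 higher without overlap and 2255 to 2758 lower without overlap. Scaling to total counts alone moved the median of all genes to 0.22 on the log2 scale, and higher calls were then 62.1% of calls against 53.3%. The chromosome 2 median stayed between −0.80 and −0.52 over 23 alternatives that could move it.

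The replicate block gave 5491 higher and 4858 lower genes in normoxia, 2662 and 2370 without overlap, and 5782 and 4838 in hypoxia. Same-numbered libraries of T47D and another line had correlations of their deviations between −0.23 and 0.36, over 0.1 in 4 of 9 pairs, and the own number was the best match in 4 of 9, so the numbers were not taken to pair libraries.

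Directions that turned belong to single lines or short lists. The colorectal median (0.16) was −0.43 with DESeq2, −0.18 without a filter, −6.39 with a mean count of at least 50, −0.19 in 1 fit of 24 libraries, −0.67 without HCT116, −1.51 without PC3, and from −0.22 (without T47D library 2) to 0.71 (without A549 library 2) when 1 library was left out. Without A549, RAB31 was 0.028, KRT7 0.75, EPCAM −0.96, FN1 0.48, CDH3 −1.42 and CDKN2A −0.31. Without HCT116, TFF1 was −1.71, IGFBP4 −1.18, KRT18 −0.038, EPHX1 −0.052, TP63 −0.36, the steroid receptor median −0.34 and the keratin median −0.47. Without PC3, KRT7 was 0.091, FN1 0.36, ITGB4 0.24, the cyclin median −0.058 and the HIF subunit median −0.16, and this last ranged from −0.030 without T47D library 3 to 0.17 without library 1 when 1 library was left out. The mean over lines shows the cause for the lines left out, and the other causes were not tested.

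Over 2887 values of named genes under these settings, 48 lost the call, 22 gained it, and 14, all of genes called in the main fit, turned. The other 2803 were counted as unchanged, which includes any change of sign in a gene not called in the main fit. With A549, HCT116 or PC3 left out of the mean in turn, an alternative chosen after seeing the data, 10 of the 22 interactions of named genes were called each time, 12 were lost at least once and 0 turned. CDH17 and HNF4A, at 0 in T47D, lost their call without PC3 library 3. PC3 library 1, at 22698584 counts, sets the floor, and levels near 0.130 CPM cannot be ranked.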
